A study of Mus musculus with 10 samples.

Results

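Gsc and its neighbouring Serpina genes were examined as 10 listed genes on mouse chromosome 12, which were Serpina10, Serpina6, Serpina1b, Serpina1d, Serpina1a, Serpina1c, Serpina1e, Serpina11, Serpina3n and Gsc in their order along the chromosome. They were chosen by name, and the region was the whole span from the first to the last of them with 50 kb on each side. The span covered 958.5 kb of mm10 (chr12:103564786-104523330) and held these 10 of 21938 protein-coding genes and 15 others, all but 1 of which were also Serpina genes. Chromatin immunoprecipitation followed by sequencing (ChIP-seq) had been done in AB17 cells, hepatocytes of a C57BL/6 Arid1a fl/fl mouse that had been immortalized with SV40 large T and an activated H-Ras. Cells infected with an adenovirus carrying GFP (Ad-GFP) were the Arid1a wildtype (WT), and cells infected with one carrying Cre (Ad-Cre) were the knockout (KO), so both genotypes shared the floxed allele, the oncogenes and an adenoviral infection. Summit lists were analysed for H3K27me3 and H3K9me3 in both genotypes and for Arid1a, Brg1, Ctcf and Rad21 in WT cells only. Each group had 1 library, so every comparison below is between 2 libraries without a replicate check, no test between genotypes was possible, and genotype and library cannot be told apart. The lists hold no expression values, and the hepatocyte label could therefore not be checked against marker expression.

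The Serpina genes encode serpins, a family of secreted protease inhibitors and hormone carriers, many of which the liver makes for the plasma. The Serpina1 paralogs encode alpha-1-antitrypsins, Serpina6 encodes the corticosteroid-binding globulin, Serpina10 encodes the inhibitor that acts with protein Z, and Serpina3n encodes an acute-phase antichymotrypsin-like inhibitor. Gsc encodes goosecoid, a homeobox transcription factor of the gastrula organizer, and such developmental genes are typical targets of Polycomb in differentiated cells. Polycomb places H3K27me3, often over broad domains, H3K9me3 marks constitutive heterochromatin, Arid1a and Brg1 are subunits of the SWI/SNF remodelling complex, and Ctcf with cohesin, of which Rad21 is a subunit, marks many boundaries and loop anchors. Ctcf binds a directional motif, and the motif strand is therefore given with each site.

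In each list a peak is represented by its summit, 1 position, and by a score, the −log10 q-value of the peak caller, with 1.3 as the lowest value at the authors' threshold. Scores grow with depth, so summits were ranked only within a list, and counts of WT and KO summits above the same score are not matched for depth. The lists held between 70408 summits for Arid1a and 143835 for WT H3K9me3, with 109601 for WT and 86050 for KO H3K27me3. The read depth is unknown, and the intervals below cover counting error only. They treat summits as independent, although a broad mark is called as strings of neighbouring summits, so for such a mark they are likely too narrow. The end of Serpina3n was used to divide the span into the Serpina segment of 849.5 kb and the Gsc segment of 109 kb, and the 56.9 kb between Serpina3n and Gsc are called the gap.

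The sequence just upstream of Gsc is shown first because the strongest H3K27me3 summits of the span lay on either side of it. These are the 200 bases before the annotated Gsc start, chr12:104473331-104473530 of GRCm38, on the minus strand on which Gsc is transcribed, with CpG dinucleotides in capitals.
Gsc upstream: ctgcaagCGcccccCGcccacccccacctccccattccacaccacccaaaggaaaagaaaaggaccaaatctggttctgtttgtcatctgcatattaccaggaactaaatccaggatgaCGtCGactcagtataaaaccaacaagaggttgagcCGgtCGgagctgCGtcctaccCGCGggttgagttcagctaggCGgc

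This stretch held 10 CpGs and 55% GC. The primers that the study designed for ChIP-qPCR at Gsc lie within it. The mark that the study measured by ChIP-qPCR upstream of Gsc was H3K27ac, and it reported an increase in KO cells. H3K27ac is not among the lists analysed here. Primer mGsc-chipF matched the minus strand at chr12:104473452-104473476 and primer mGsc-chipR the plus strand at chr12:104473369-104473387.
mGsc-chipF: aagaaaaggaccaaatctggttctg
mGsc-chipR: tccgaccggctcaacctct

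The amplicon of 108 bp ended 39 bp upstream of the Gsc start. Its centre lay 417 bp from the nearest WT H3K27me3 summit and 1118 bp from the nearest KO H3K27me3 summit. No other list had a summit so close, with WT H3K9me3 at 2765 bp, KO H3K9me3 at 43210 bp, Ctcf at 25085 bp, Rad21 at 33132 bp, Brg1 at 57552 bp and Arid1a at 88148 bp.

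The Ctcf sites between Serpina3n and Gsc carry the other sequences of interest. A weight matrix of the Ctcf motif was built from strong Ctcf summits outside chromosome 12, and a match within 100 bp of a summit was accepted at a score that 1% of windows moved by 2 kb reached. On chromosome 12, which had not entered the matrix, 65.2% of 488 Ctcf summits with a score of at least 20 had a match, against 1.53% of 2806 Ctcf summits moved by 2 kb. Of the 30 Ctcf summits of the span 11 had a match, 7 of 22 in the Serpina segment and 4 of 8 in the gap. The 4 gap sites are printed in their order from Serpina3n to Gsc, followed by the strongest Ctcf site of the span, which lay in the Serpina segment. Each line gives 40 bases on the motif's own strand, with the motif in capitals.
Ctcf 104418744, minus strand, chr12:104418668-104418707: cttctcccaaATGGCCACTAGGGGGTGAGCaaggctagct
Ctcf 104427168, minus strand, chr12:104427168-104427207: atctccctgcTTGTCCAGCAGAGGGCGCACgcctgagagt
Ctcf 104440249, plus strand, chr12:104440228-104440267: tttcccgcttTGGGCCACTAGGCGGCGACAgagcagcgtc
Ctcf 104448337, minus strand, chr12:104448343-104448382: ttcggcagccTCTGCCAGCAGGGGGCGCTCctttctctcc
Ctcf 104069882, minus strand, chr12:104069833-104069872: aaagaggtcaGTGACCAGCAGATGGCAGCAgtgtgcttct

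A match describes letters in a window and not binding. The site of the gap with the strongest Ctcf peak, 104440249, was the only 1 of the 4 with its motif on the plus strand, and the 3 other matches were on the minus strand. Its match scored 9.10 bits and that of 104418744 scored 7.48 bits, both nearer the limit of 6.48 bits than the matches of 104427168 and 104448337, which scored 22.1 and 22.8 bits.

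Gsc lay inside a dense string of H3K27me3 summits in both genotypes, while the summits of the Serpina cluster beside it were sparser and weaker. In the Gsc segment 35 WT and 31 KO summits of this mark were counted. The density was 321.1 per Mb in WT (exact Poisson 95% interval 223.7 to 446.6) and 284.4 per Mb in KO (193.2 to 403.7), against 40.2 and 31.6 per Mb over the genome and 24.7 and 17.7 per Mb on chromosome 12. The Serpina segment held 22 summits in WT (25.9 per Mb, 16.2 to 39.2) and 9 in KO (10.6 per Mb, 4.84 to 20.1). The whole span held 57 WT and 40 KO summits. Of 2832 genome windows of its length 74.8% in WT and 74.9% in KO held as few or fewer, so the rest were richer than the span. The intervals of the segments did not overlap in either genotype, and those of the Serpina segment include the density of chromosome 12.

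**Figure D1:**
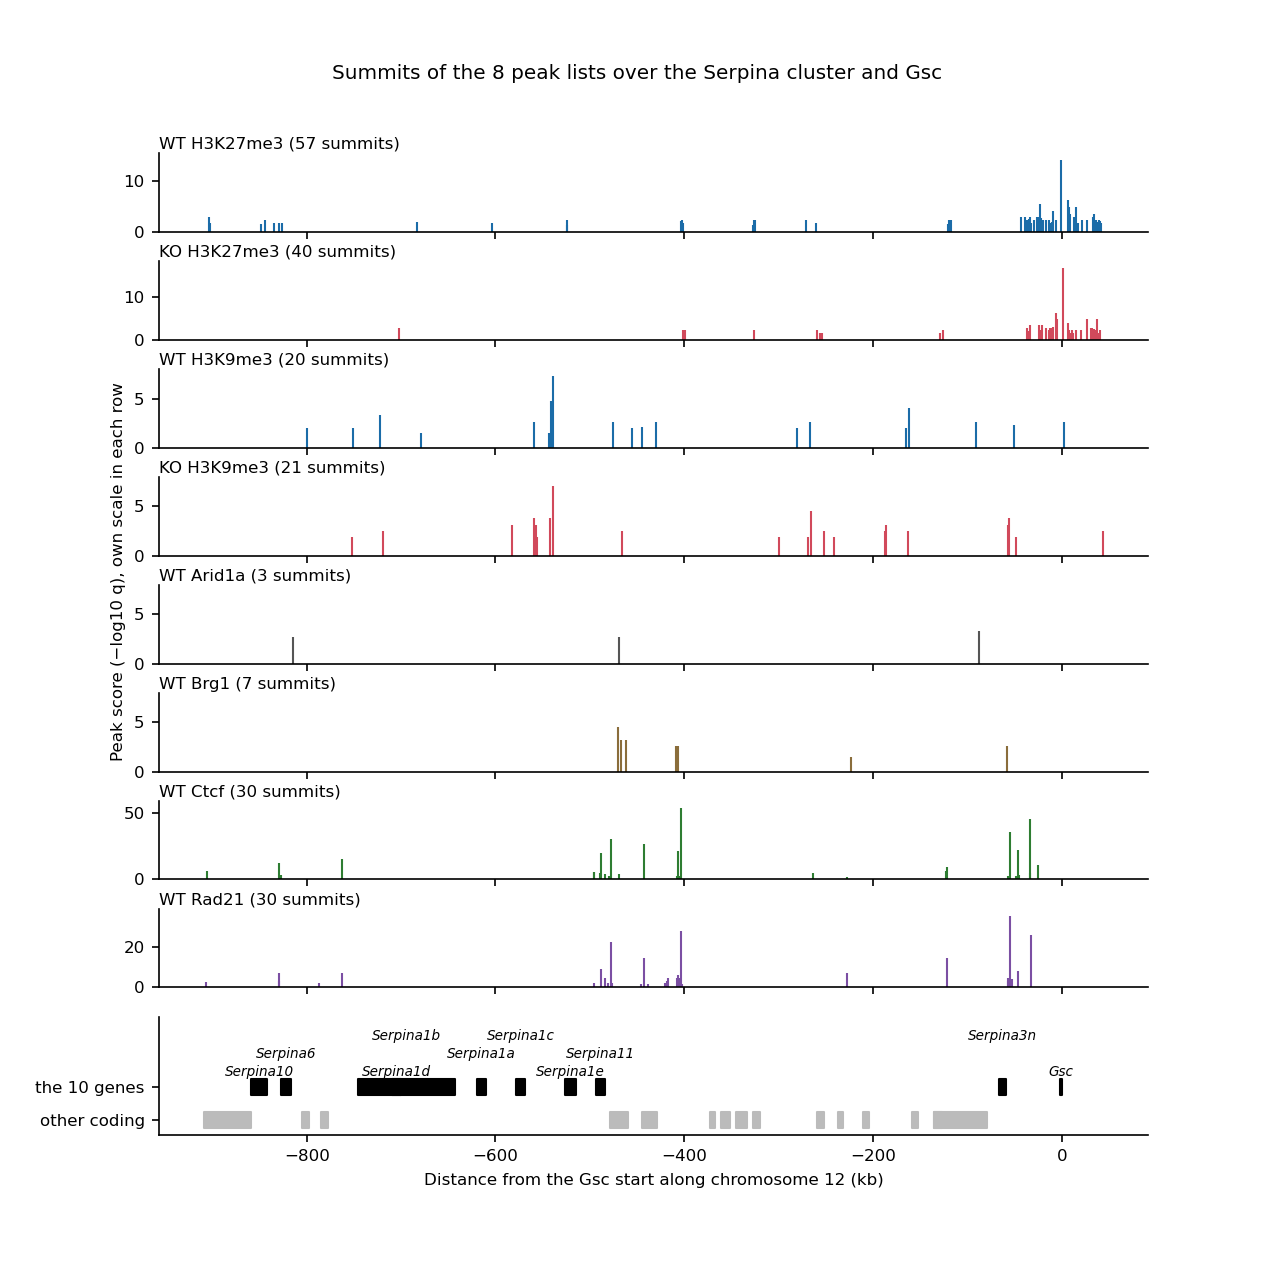
Vertical lines give the summits of each peak list by their distance from the Gsc start in kb (horizontal axis) and their peak score as −log10 q (vertical axis, own scale in each row), and boxes give the 10 genes and the other coding genes. H3K27me3 crowds around Gsc with 35 WT and 31 KO summits, and the Ctcf and Rad21 lists have no summit over the Serpina1 genes or at Gsc.

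The difference between the segments was also one of strength. In the Serpina segment the highest H3K27me3 score was 2.84 in WT and 2.75 in KO, and 0 summits of either genotype reached a score of 3. In the Gsc segment 8 WT and 9 KO summits did. All H3K27me3 summits of the span with a score of at least 3 thus lay in the Gsc segment, and the Serpina summits lay nearer the authors' threshold.

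The strongest H3K27me3 summit of the span was at the Gsc start in both lists. In WT it lay at 104473005, in an exon of Gsc and 325 bp downstream of the start, with a score of 14.0, and 1.16% of the WT list ranked as high. In KO it lay at 104474540, in the intergenic sequence 1210 bp upstream of the start, with a score of 16.65, and 0.562% of the KO list ranked as high. The WT and KO summits were 1535 bp apart and therefore did not count as partners within 1 kb. Among the protein-coding genes with a summit within 2 kb of the start, 738 of 5127 had one as strong as Gsc in WT (14.4%) and 303 of 4348 in KO (6.97%). The median of the strongest score at such starts was 4.63 in WT and 4.72 in KO.

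The next summits were far weaker than those at the start. In WT they were 104479662, 6332 bp upstream of Gsc, with a score of 6.17, and 104450539, 22791 bp beyond the start on the Serpina side, with a score of 5.47. In KO the next was 104466918, 6412 bp beyond the start on the Serpina side, with a score of 6.30, followed by 3 summits tied at a score of 4.77. Of these 104468714 lay 4616 bp beyond the start on the Serpina side, and 104500538 and 104511114 lay 27208 and 37784 bp upstream. Within 10 kb of the start 6 WT and 7 KO summits were found.

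Most summits of the string had one of the other genotype nearby. In the Gsc segment 27 of 35 WT summits had a KO summit within 1 kb (77.1%, Wilson 95% interval 61.0 to 87.9%) and 27 of 31 KO summits had a WT summit (87.1%, 71.1 to 94.9%). Over the whole lists the shares were 54.4% and 68.3%. In the Serpina segment 4 of 22 WT summits (18.2%, 7.31 to 38.5%) and 2 of 9 KO summits (22.2%, 6.32 to 54.7%) had one. A partner within 1 kb is found more often where summits are dense, and the segments differed in density, so these shares are a description and the order of the segments is not a result apart from the density.

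**Figure D2:**
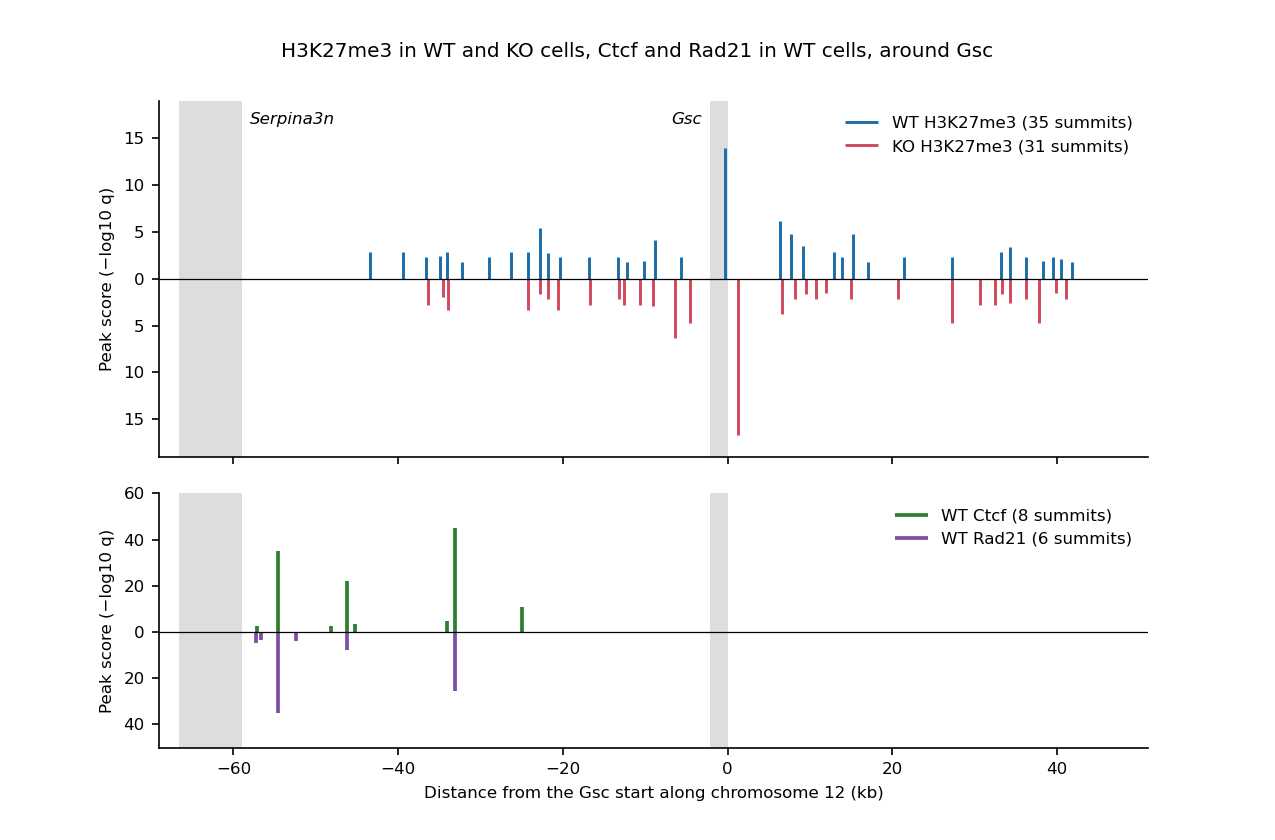
The upper panel gives H3K27me3 summits of WT (upward) and KO cells (downward) and the lower panel Ctcf (upward) and Rad21 (downward) in WT cells, by distance from the Gsc start in kb, with the peak score as −log10 q on the vertical axes and gene bodies in grey. The strongest lines of both genotypes, 14.0 in WT and 16.65 in KO, stand at Gsc, and all 8 Ctcf and 6 Rad21 summits lie on the Serpina side of it.

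How far the string counts as 1 domain depended on the distance over which summits were joined. At 5 kb, the distance set for the main analysis, the summit at the Gsc start stood alone in both genotypes and its domain had a length of 0 kb. Its neighbours were 5.32 and 6.66 kb away in WT, and 5.83 and 5.35 kb away in KO, on the Serpina and the far side. The flanking blocks at this distance held 18 summits over 37.7 kb and 8 over 15.1 kb in WT, and 11 over 19.6 kb and 6 over 8.4 kb in KO.

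At a joining distance of 10 kb all 35 WT summits of the segment formed a domain of 85.2 kb (chr12:104429960-104515153), and all 31 KO summits formed 1 of 77.4 kb (chr12:104436986-104514398). Of 16052 WT domains 538 had at least as many summits (3.35%), and of 14121 KO domains 474 did (3.36%). The KO domain lay wholly inside the WT domain and covered 90.9% of it. Its end beyond Gsc was 755 bp from the WT end. Its end toward Serpina3n was 7.03 kb nearer to Gsc, and 3 WT summits, at 104429960, 104433968 and 104436726 with scores of 2.84, 2.84 and 2.29, lay outside it. None of the 3 reached a score of 3, and the median score of the WT string was 2.29. The KO end toward Serpina3n holds only where a break of 9.69 kb is bridged, the largest of the KO string. At 7 kb joining, a distance added after seeing the data, the WT domain still held 35 summits over 85.2 kb. The KO domain then held 28 summits over 65.3 kb.

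The ratio of KO to WT summit counts addressed whether H3K27me3 was called less often after Arid1a loss here. It was 0.886 in the Gsc segment (35 and 31 summits, exact 95% interval 0.528 to 1.48) and 0.409 in the Serpina segment (22 and 9 summits, 0.166 to 0.924). The whole lists had a ratio of 0.785 and chromosome 12 of 0.717, and both intervals include these values. With the lists limited to equal numbers of peaks by strength the Serpina segment held 11 WT and 9 KO summits, a ratio of 0.818 (0.30 to 2.17), and the Gsc segment 30 and 31, a ratio of 1.03 (0.605 to 1.77). With the full lists and summits at most 3 kb apart merged the Serpina segment held 13 and 7, a ratio of 0.538 (0.182 to 1.45). The interval of the Serpina segment thus lay under 1 with all summits and included 1 under both of these alternatives. The intervals of unmerged summits treat neighbouring summits as independent.

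**Figure D3:**
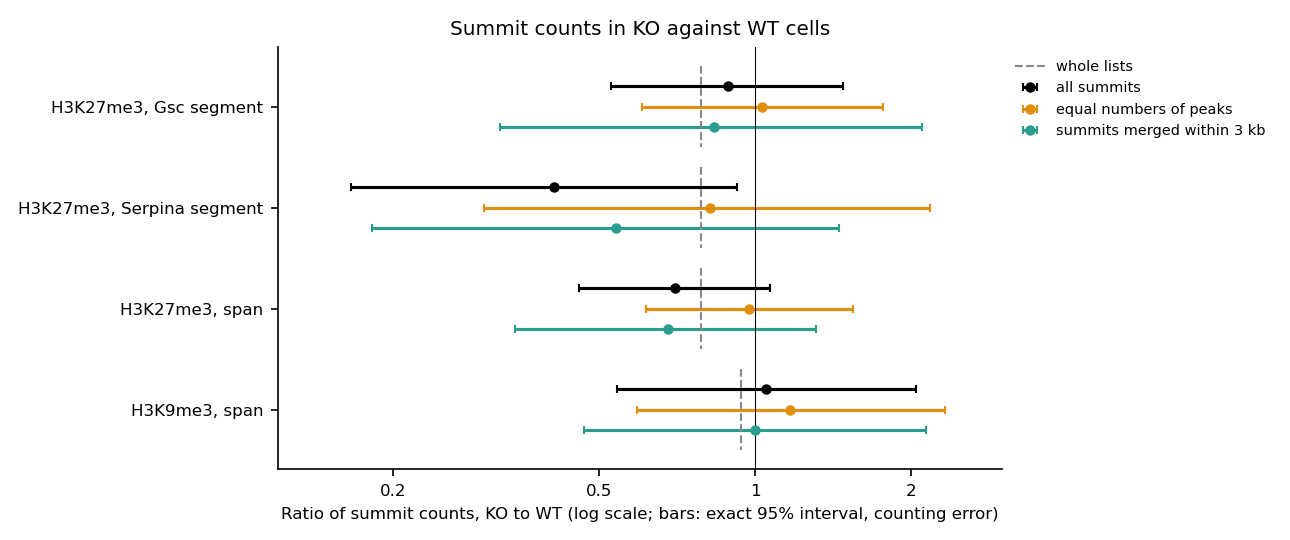
Points give the ratio of KO to WT summit counts on a log axis, with exact 95% intervals of counting error, for all summits, for lists of equal numbers of peaks and for summits merged within 3 kb, and dashed lines give the whole lists. The H3K27me3 ratio of the Serpina segment is 0.409 with all summits and 0.818 with equal numbers, and of the intervals drawn only that of the 0.409 excludes 1.

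H3K9me3 followed no such string. The span held 20 summits in WT and 21 in KO, a ratio of 1.05 (0.542 to 2.04) against 0.938 over the whole lists. The Gsc segment held 2 in WT and 4 in KO, and none of them had a partner in the other genotype. In the span 4 of 20 WT summits (20%, 8.07 to 41.6%) and 4 of 21 KO summits (19.05%, 7.67 to 40%) had a partner, beside 31.1% and 33.3% over the whole lists. The density was 20.9 per Mb in WT (12.7 to 32.2) and 21.9 per Mb in KO (13.6 to 33.5), under the 52.8 and 49.5 per Mb of the genome, but the intervals include the 27.4 and 30.8 per Mb of chromosome 12. Of 2832 genome windows of the span's length 33.0% in WT and 21.7% in KO held as few.

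The strongest H3K9me3 summit of the span was shared and intergenic. It lay between Serpina1c and Serpina1e at 103934652 in WT, with a score of 7.30, and at 103934812 in KO, with a score of 7.06. The next in WT was 103931772, with a score of 4.79, and the third 104311255 near Serpina3j, with a score of 4.03. In KO they were 104207462, 7082 bp upstream of Serpina3f, with a score of 4.53, and 103914284, 9397 bp upstream of Serpina1c, with a score of 3.8, a score that 103931451 and 104417022 shared. In WT an H3K9me3 summit with a score of 2.63 lay 2857 bp upstream of Gsc, and in KO the nearest lay 43302 bp upstream with a score of 2.47.

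The Ctcf and Rad21 sites of the span fell into few places, 1 of which was the gap before Gsc. The span held 30 Ctcf and 30 Rad21 summits, 31.3 per Mb for each (21.1 to 44.7), close to the genome's 33.5 and 37.3. Of the Ctcf summits 21 had a Rad21 summit within 1 kb (70.0%, 52.1 to 83.3%), and the interval includes the 55.7% of the whole list. The Serpina segment held 17 of these pairs, and the gap held 4. All 8 Ctcf and 6 Rad21 summits of the Gsc segment lay in the gap, a Ctcf density of 140.6 per Mb (60.7 to 277.1).

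The 4 Ctcf sites with Rad21 in the gap were unequal. Ctcf 104418744, 4.4 kb past the end of Serpina3n, had a score of 35.25 and lay 50 bp from the strongest Rad21 summit of the span, which scored 35.22. Ctcf 104427168 had a score of 22.0 and a Rad21 summit of 7.90 at 107 bp. Ctcf 104440249, 33.1 kb from the Gsc start, had a score of 45.0, the second highest of the span, and a Rad21 summit of 25.6 at 41 bp. Ctcf 104416214, with a score of 2.72, lay 190 bp from a Rad21 summit of 4.72 and had no motif match.

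The 4 Ctcf sites of the gap without Rad21 were weaker on the whole. Those at 104425188, 104428130 and 104439230 had scores of 2.72, 3.35 and 4.73 and no motif match. The fourth, 104448337, had a score of 10.8 and the best motif match of the gap, and its nearest Rad21 summit was 8047 bp away. This was the Ctcf summit nearest to Gsc, 24993 bp from its start.

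The H3K27me3 string began among these sites. No H3K27me3 summit of either genotype lay between Serpina3n and Ctcf 104427168. The first WT summit came 2792 bp beyond that site and the first KO summit 9818 bp beyond it. In WT the strongest Ctcf site of the gap, 104440249, did not lie at the edge of the string but inside it. There 5 WT summits lay on its Serpina side, and the nearest was 812 bp away. In KO 3 summits lay on its Serpina side, and the nearest was 862 bp away. The largest break of the KO string, 9.69 kb from 104439387 to 104449073, held the site. At joining distances of 5 and 7 kb the 3 KO summits were not joined to those nearer Gsc. The site was thus inside the KO string at 10 kb joining only. At the other end of the string no such site was near: the next Ctcf site with a score of at least 20 and Rad21 was 421.2 kb beyond the WT end. Domain ends were also taken over the whole WT list, with summits joined within 10 kb. Among the 6110 ends of domains of 10 or more summits, 483 had such a site at most 3 kb outside (7.91%). The median distance was 59.2 kb. The limit of 3 kb was chosen after the distance at Gsc had been seen. Ctcf and Rad21 were profiled in WT cells only, so whether these sites changed in KO cells was not measured.

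Gsc itself was free of the WT-only factors. The nearest Ctcf summits on its 2 sides enclosed 99.9 kb, the Rad21 summits 257.9 kb, the Brg1 summits 271.1 kb and the Arid1a summits 366.2 kb. Intervals of at least 105.3 kb between neighbouring Ctcf summits made up 52.2% of the genome, so a Ctcf interval like that of Gsc was common. No such share was computed for the Rad21, Brg1 and Arid1a intervals, and nothing particular to Gsc is read from them. The Gsc segment held 0 Arid1a summits, which allows up to 33.8 per Mb (exact Poisson), a value above the genome's 25.8, so that a lower density was not detectable there. Its only Brg1 summit, 104415870 with a score of 2.56, lay by the Serpina3n end and 344 bp from the Ctcf summit 104416214.

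SWI/SNF summits were sparse in the whole span. There were 3 Arid1a summits (3.13 per Mb, 0.645 to 9.15), against 12.95 per Mb on chromosome 12 and 25.8 over the genome, and 7 Brg1 summits (7.30 per Mb, 2.94 to 15.05), against 17.2 and 29.9. Their intervals lay under the values of the chromosome and the genome. Of 2832 genome windows of this length 23.3% held as few Arid1a and 31.9% as few Brg1 summits, so such sparseness was common. The 3 Arid1a summits were 104385274 in an intron of Serpina3m (score 3.33), 103658857 upstream of Serpina6 (2.70) and 104004675 in an intron of Serpina9 (2.70). The last of these lay among the 3 strongest Brg1 summits, 104002856, 104005923 and 104011403, all in introns of Serpina9 and with scores of 4.49, 3.16 and 3.16, and 51 bp from a Ctcf summit of 4.02. Serpina9 encodes centerin, a serpin of germinal centre B cells.

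**Figure D4:**
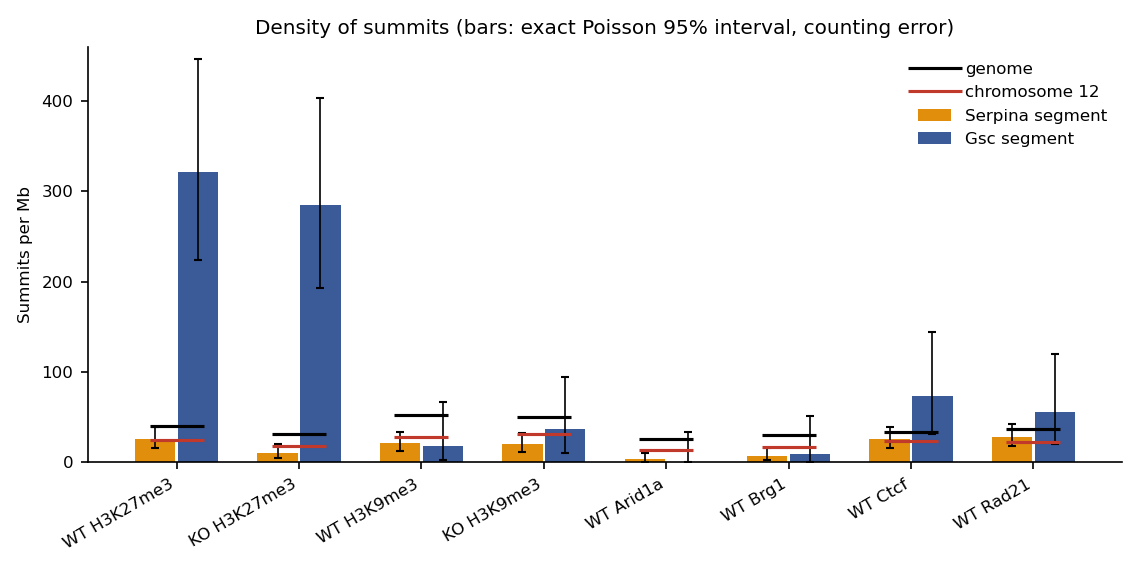
Bars give summits per Mb in the Serpina and the Gsc segment for each list, with exact Poisson 95% intervals of counting error, and horizontal marks give chromosome 12 and the genome. H3K27me3 reaches 321.1 per Mb in WT and 284.4 in KO in the Gsc segment, and Arid1a and Brg1 stay under the genome's mark in the Serpina segment.

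The strong Ctcf sites of the Serpina segment were grouped past the Serpina1 genes. They were 103995519 in an exon of Serpina9 (Ctcf 30.3, Rad21 22.3), 104030330 in an exon of Serpina12 (26.6 and 14.5), 104066497 (21.5 and 6.25) and 104069882 (53.5 and 27.5), the last 2 intergenic. With the 3 of the gap they made up the 7 Ctcf summits of the span with a score of at least 20. The site 104069882 lay beside a small WT H3K27me3 block, 3 summits from 104070109 to 104072038, the first of them 227 bp away. In KO 2 H3K27me3 summits were found there, at 104071784 and 104074382.

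The 5 Serpina1 paralogs lay in the longest stretch of the span without a Ctcf summit. It reached over 266.7 kb from 103710497 to 103977192, and 1486 of 91334 intervals between neighbouring Ctcf summits were at least as long (1.63%), though such intervals made up 30.7% of the genome. Inside it were 0 Arid1a and 0 Brg1 summits, 1 Rad21 summit 30 bp from its edge, 8 WT and 8 KO H3K9me3 summits, and 4 WT and 1 KO H3K27me3 summits. Serpina1b is annotated over 102.2 kb through a long transcript that spans Serpina1d, and none of its 3 annotated starts had a summit of any list within 2 kb.

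The paralogs are near-copies, and this limits what can be mapped there. The following 60 bases upstream of the RefSeq starts were lined up on the longest word that the 5 promoters share. All are on the minus strand of GRCm38, and capitals mark the 5 positions at which not all genes have the same base.
Serpina1a, chr12:103863625-103863684: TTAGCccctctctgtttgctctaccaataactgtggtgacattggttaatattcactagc
Serpina1b, chr12:103738200-103738259: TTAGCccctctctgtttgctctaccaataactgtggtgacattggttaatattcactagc
Serpina1c, chr12:103904962-103905021: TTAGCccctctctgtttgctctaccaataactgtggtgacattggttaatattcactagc
Serpina1d, chr12:103773634-103773693: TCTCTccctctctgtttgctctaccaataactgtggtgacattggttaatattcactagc
Serpina1e, chr12:103956960-103957019: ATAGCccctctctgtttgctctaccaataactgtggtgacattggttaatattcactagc

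The shared word was 55 bases long, so the choice of window fixed at least 55 identical bases of 60 for each of the 10 pairs. This identity is therefore not a measure of the whole promoters. In the 5 remaining bases Serpina1a, Serpina1b and Serpina1c were identical. Over the gene bodies, 53.4% of the 50-base words of Serpina1a occurred more than once on chromosome 12, 55.3% of Serpina1c, 47.2% of Serpina1b, 42.6% of Serpina1d and 39.5% of Serpina1e. The share was 1.09% in Serpina11, 4.53% in Serpina3n, 0% in Serpina6 and in Gsc, and 31.2% in Serpina10. The word length was set without knowledge of the read length. A missing summit at a Serpina1 gene can therefore not be told apart from reads that could not be placed, and a summit there may belong to a paralog. Of the H3K9me3 summits of the span 6 of 20 in WT and 9 of 21 in KO lay on a repeated word, of the H3K27me3 summits 1 of 57 and 0 of 40.

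Summits at the 10 gene starts were counted beside the share of all protein-coding genes. Counts among 10 genes are small and were not tested, and no difference from the background is read from them. At the Serpina1 starts a missing summit cannot be told apart from reads that could not be placed. Within 2 kb of its outermost start 1 of 10 genes had an H3K27me3 summit in WT, against 23.4% of all protein-coding genes, and 1 of 10 in KO, against 19.8%. It was Gsc in both. The share of all genes with one in both genotypes was 17.2%, in WT only 6.14% and in KO only 2.58%, and no member fell in the latter classes. H3K9me3 was found at 0 of 10 starts in WT (38.7% of all genes) and 0 of 10 in KO (14% of all genes), where 7.3% of all genes had it in both genotypes, 31.4% in WT only and 6.69% in KO only.

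The factors were counted likewise. Arid1a was found at 1 of 10 starts (35.2% of all genes), 1645 bp upstream of Serpina6 with a score of 2.70, and Brg1 at 0 of 10 (39.6%). Ctcf was found at 1 of 10 (42.5%) and Rad21 at 1 of 10 (50.6%), both at Serpina11, with the Ctcf summit of 3.86 lying 790 bp and the Rad21 summit of 4.72 lying 674 bp inside the gene. Serpina11 also held a stronger site in an intron, 4829 bp from the start, with a Ctcf score of 19.4 and a Rad21 score of 8.93. Any of the 8 lists reached 3 of the 10 starts, against 80.7% of all genes. The near-copies of Serpina1 are all among the starts without a summit, so this count carries the mapping limit given above.

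**Figure D5:**
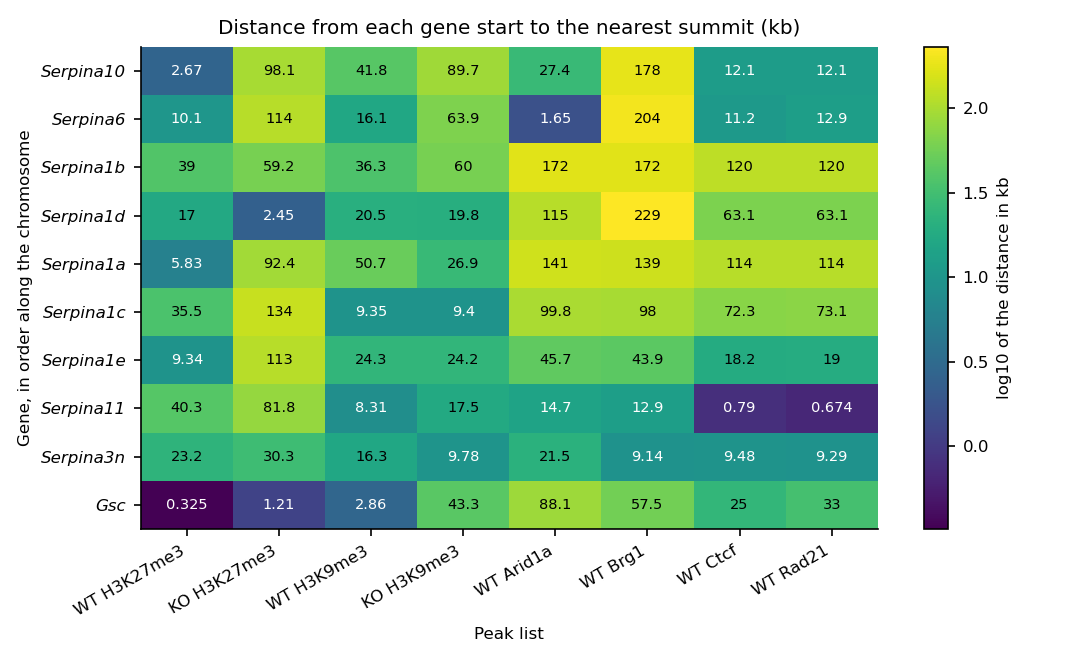
Each cell gives the distance in kb from the outermost start of a gene (rows, in order along the chromosome) to the nearest summit of a peak list (columns), coloured by its log10. Distances under 2 kb appear at Gsc for H3K27me3 in both genotypes, at Serpina6 for Arid1a and at Serpina11 for Ctcf and Rad21.

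The Serpina members differed among themselves in how far H3K27me3 was from their outermost GENCODE starts. In WT the nearest summit lay 2672 bp inside Serpina10, 5833 bp upstream of Serpina1a and 9340 bp inside Serpina1e, with scores of 2.29, 1.78 and 2.29, and between 10093 bp (Serpina6) and 40322 bp (Serpina11) away for the others. In KO the nearest lay 2453 bp inside Serpina1d, with a score of 2.75, and for the other Serpina members between 30257 bp (Serpina3n) and 133748 bp (Serpina1c) away. Among the gene bodies, Serpina10, Serpina6 and Serpina1e held 2, 1 and 2 summits in WT and 0 in KO, and Gsc held 1 in WT and 0 in KO. Serpina1b held 1 in each, and Serpina1d held 0 in WT and 1 in KO. The KO summit of these 2 genes is the same one, 103771139 in Serpina1d, because the annotation of Serpina1b spans Serpina1d. The bodies of Serpina1a, Serpina1c, Serpina11 and Serpina3n held 0 in both.

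The promoters differed in base composition. Of the 10 genes 8 were in the RefSeq promoter table (GRCm38), which gave no entry for Serpina10 and Serpina6. In the 250 bases before the RefSeq start Gsc had 22 CpGs and 59.2% GC, and 14.6% of 27025 promoters had as many CpGs. The 7 Serpina promoters had between 1 CpG (Serpina3n) and 5 (Serpina1b), where the median promoter had 6, and between 46.4 and 49.2% GC. The RefSeq start of Gsc lies 94 bp inside the GENCODE start used for the distances above.

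Lists of related genes were counted in the same way. Of the 15 other coding genes of the span 2 had H3K27me3 at the start in both genotypes, Ppp4r4, a phosphatase subunit whose start lies outside the span, and Serpina3f. Of 38 other Serpin genes outside the span 2 had it in WT, Serpine2 and Serping1, and 1 in KO, Serpine2. Of 16 organizer and homeobox genes 8 had it in WT and 7 in KO, with 6 in both, namely Eomes, Gsc2, Lefty2, Mixl1, Nodal and Otx2. Of 16 plasma protein genes 6 had it in WT and 4 in KO, with Ahsg, Fga and Fgg, which encode fetuin and fibrinogen chains, in both. These counts stand beside the 23.4% and 19.8% of all genes. The lists are small, their shares were not tested, and no difference from the background is read from them.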

How the data were processed

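ChIP-seq of AB17 cells gave 10 samples, of which 8 had a peak list and 2 were inputs (not used here). Titles gave genotype and antibody, and these defined the groups. According to the study's methods and the submitters' processing notes, the authors aligned reads to mm10 with Bowtie2, filtered with SAMtools and Picard and called peaks with MACS2. Versions are not given in the sources used here. The deposited score was read as the −log10 q-value of a peak from its values, none under 1.3. Per-sample read depth is unknown.

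Summits were placed on GRCm38 with GENCODE vM21. Partners lay within 1 kb, starts were the outermost ones within 2 kb, and domains joined summits within 5 kb. Joining within 10 kb was also used, for the string around Gsc as 1 domain, its rank and the domain ends. Intervals (exact binomial, Poisson, Wilson) are at 95%, and no test was run. Counting was tested on simulated data. The genes named were the 10 members, the 3 strongest summits of each list in the span, Ctcf summits of the gap, those of score at least 20, and genes there. Members and gene lists were chosen with earlier results of these data known. Sequences come from RefSeq GRCm38 and the study's primer table. Python 3 with pandas, NumPy and SciPy was used.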

Additional observations from a re-analysis of the deposited data

How the results depend on the processing

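Of 70 alternatives over 19 results, 52 left the value within its counting interval or within 1.5 times the count, and 18 did not. For the domain lengths only an equal length counted as unchanged. With H3K27me3 summits of score at least 3 the KO to WT ratio of the span was 1.12 (8 and 9 summits), and the same limit gave 2.25 for H3K9me3 (4 and 9 summits). Neither the limit of 3 nor that of 5 left an H3K27me3 summit in the Serpina segment, so no ratio was possible there. The domain over Gsc, 0 kb at 5 kb joining, was 85.2 kb (WT) and 77.4 kb (KO) at 10 kb joining, and 85.2 and 65.3 kb at 7 kb, a distance added after seeing the data. Ctcf sites with Rad21 in the span fell from 21 to 11 where both scores were at least 5 and to 5 at 10, and those in the gap from 4 to 2 at 10. At score 5, 0 Arid1a and 0 Brg1 summits per Mb were left in the span. Within 5 kb of a start, 2 genes had H3K27me3 in WT and 2 in KO, 1 had WT H3K9me3, and 5 had any list. Within 1 kb, KO H3K27me3 and Arid1a were each at 0 starts, and Arid1a was at 0 with a score of at least 3. The causes were not tested. No paired analysis was possible because each group had 1 library. With 1 library per group and unknown depth, a summit that is missing in 1 genotype cannot be told apart from a shallower library.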
